A study of Mus musculus with 4 samples.

Results

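The genes described here encode the nuclear subunits of the oxidative phosphorylation system, the chain of mitochondrial protein complexes that turns the electrons of nutrients into ATP. They were taken by symbol from the array annotation (the Nduf, Sdh, Uqcr, Cyc1, Cox4 to Cox8 and Atp5 families). Only probe sets that name the gene alone were used, a probe set being a group of short probes for 1 transcript. Where a gene had more than 1, the probe set with the highest mean over all arrays stood for it. This gave 82 genes out of 18193 with a probe set of their own: 35 of complex I, 4 of complex II, 9 of complex III, 17 of complex IV and 17 of complex V. Of these, 78 were tested. Ndufa4l2, Ndufb4, Cox7b2 and Cox8b lay among the dimmest 40% of probe sets, which were left out.

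Complex I takes electrons from NADH and complex II takes them from succinate. Both pass them to ubiquinone, complex III passes them on to cytochrome c, and complex IV hands them to oxygen. The proton gradient built along the way drives complex V, the ATP synthase. T cells enlarge their mitochondrial mass when they are activated, and Treg cells, the CD4 T cells that restrain immune responses under the control of Foxp3, are known for their reliance on mitochondrial respiration.

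Naive T cells had been isolated from mouse spleen and stimulated for 3 days in Treg-inducing culture, after which single-colour Affymetrix arrays were used to measure total RNA. Cells of wild-type mice (WT) gave 2 arrays and cells of KO mice gave 2 arrays. The labels name neither the gene removed in the KO, nor the strain and age of the mice, nor the agents of the culture, so no check of the targeted gene was made. Each array has a mouse source with its own number, but the labels do not say how cultures were kept apart, and the p-values cover only how these samples vary, which may be technical variation. Signals are deposited MAS5 intensities, and every array had a trimmed mean of 499.8.

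The question the comparison answers is which subunit genes differed between KO and WT cells. Few did. In KO cells Ndufs5, Cox7a1 and Uqcrq were higher, and Cox7a2l, Ndufa4, Ndufa6 and Atp5mpl were lower, at a Benjamini-Hochberg adjusted p under 0.05 in limma, which is what called means here. The median log2 fold change of the 78 genes was -0.03 with an interquartile range from -0.17 to 0.09. Over 1 probe set for each of the 12545 tested genes, the median was -0.03 too, but the interquartile range ran from -0.32 to 0.30.

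The 7 called genes are 8.97% of the 78. Over all 27022 tested probe sets 17.1% were called, 7.89% higher in KO and 9.17% lower. With 1 probe set per gene the share was 20.4%, and among the 4510 genes with a mean signal over 1000 it was 29.7%. Of the subunit genes, 71 had a mean signal over 1000, and 8.45% of those were called. The KO arrays both lay above the WT arrays for 17 of the 78 subunit genes, against 25.1% of all tested probe sets, and both below for 30, against 35.1%. With 1 probe set per gene, they lay above for 3744 and below for 4139 of the 12545 tested genes. Among the 4510 genes with a mean signal over 1000, the counts were 1447 and 1774. With 2 arrays per genotype the smallest two-sided p of an exact permutation test is 0.333, so every call rests on limma's pooling of the spread across probe sets. The counts depend on single arrays: 2 higher and 1 lower genes were called without WT replicate 1, also 2 and 1 without WT replicate 2, 5 and 7 without KO replicate 1, and 6 and 2 without KO replicate 2.

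On the probe sets that stood for them, the data also bounded the size of a difference for most of these genes. The median standard error of a log2 fold change was 0.098 for the subunit genes and 0.18 for all tested genes. For 66 of the 78 the whole 95% confidence interval lay within a 1.5-fold change in either direction, which is 0.585 on the log2 scale. The same held for 3825 of all 12545 genes and for 2591 of the 4510 bright ones. Only 6 subunit genes had an absolute log2 fold change over 0.5: Cox7a1, Ndufs5, Cox7a2l, Cox4i2, Ndufb1 and Cox6a2, and the last 3 were not called. Other probe sets of genes within the bound could go past it. Another probe set of Ndufa12 gave 0.74, and a dim probe set of Atp5c1 gave -1.20.

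**Figure D1:**
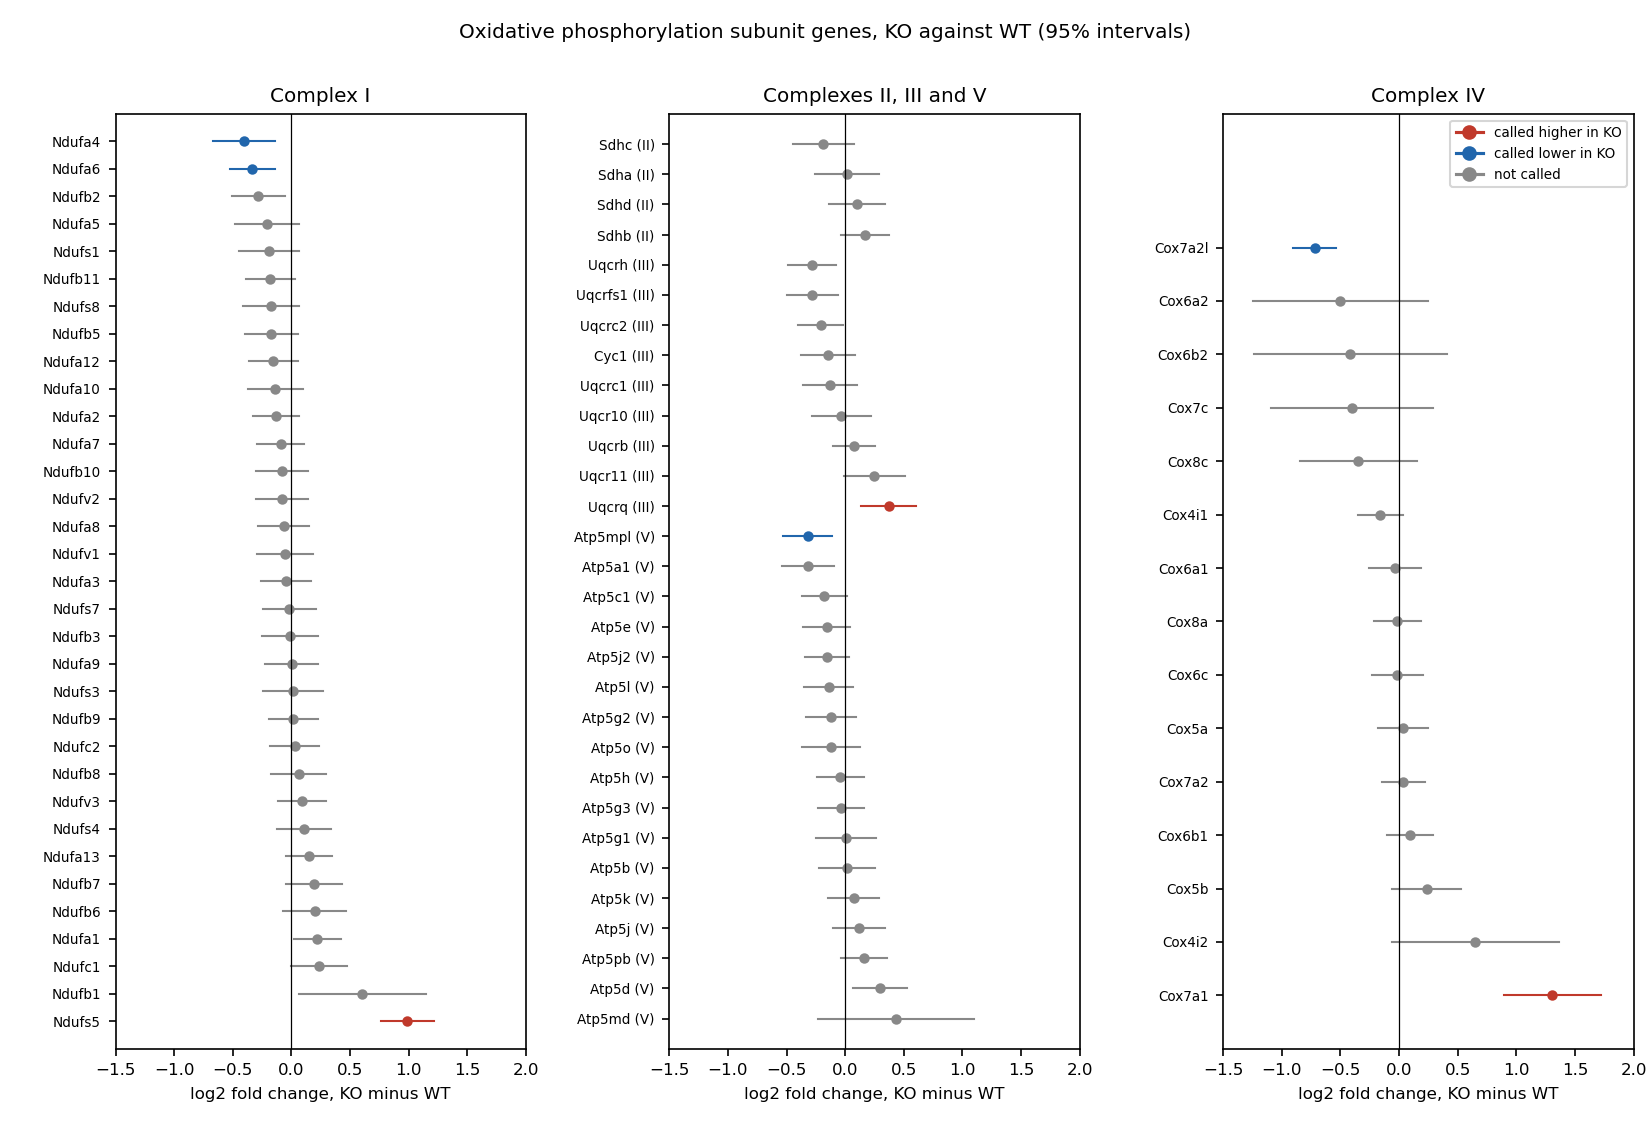
Log2 fold change between KO and WT arrays (x axis; positive means higher in KO) for each of the 78 tested subunit genes, by complex. Points are limma estimates from 2 arrays per genotype, bars their 95% confidence intervals, and colours the 3 genes called higher and the 4 called lower; most points lie close to 0 and the widest bars belong to dim genes such as Cox6b2.

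Complex I, with its genes taken by symbol, held the largest rise among subunit genes with a mean signal over 1000 and 2 of the 4 falls, 1 of which was that of Ndufa4, now known from complex IV. Complex I is built around a core of subunits shared with bacteria, which carry the flavin and the iron-sulfur clusters and move the electrons, surrounded by a shell of accessory subunits. None of the 3 called genes belongs to the core: Ndufs5 was higher in KO, and Ndufa4 and Ndufa6 were lower. Of the 6 tested core genes 0 were called, beside 11.1% of the 27 accessory genes, Ndufa4 among them, and 20.4% of all tested genes. Whether core and accessory genes differ was not tested. Of the 33 tested complex I genes 30 were not called, and their group's median log2 fold change was -0.04.

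Ndufs5, an accessory subunit on the intermembrane-space side of the complex, had signals of 2598 and 2495 in WT and of 4973 and 5179 in KO. Both KO arrays lay far above both WT arrays. The log2 fold change was 0.99 ± 0.10 (SE, n = 2 per group; limma adjusted p = 0.000406), or 1.99-fold, and it remained called in all 14 alternatives tried. A further probe set names Ndufs5 together with its pseudogene Ndufs5-ps, and it did not repeat the difference. Its signals were 5581 and 5387 in WT and 5872 and 5422 in KO, a log2 fold change of 0.04 ± 0.10 (limma adjusted p = 0.815). No alternative used this shared probe set for the gene, because each took only probe sets that name 1 gene. The rise of Ndufs5 therefore stands on 1 of the 2 probe sets that name it, and the cause of their difference was not tested.

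Ndufa6, an accessory subunit of the LYR protein family, gave 13123 and 13332 in WT and 10588 and 10405 in KO. Each pair was tight and the pairs were well apart, for a log2 fold change of -0.33 ± 0.08 (limma adjusted p = 0.0286). Ndufa4 was first described as a complex I subunit and was later found in complex IV. It gave 7128 and 6075 in WT and 5264 and 4693 in KO, a log2 fold change of -0.40 ± 0.11 (limma adjusted p = 0.0442). The lower WT array and the higher KO array of Ndufa4 were closer to each other than the WT arrays were. Both calls were lost without the filter on dim probe sets, with arrays centred on their medians, without the intensity trend, and without either WT array. Without WT replicate 1 and without WT replicate 2 the log2 fold changes were -0.35 and -0.32 for Ndufa6, and -0.29 and -0.52 for Ndufa4. Ndufa4 was also lost without KO replicate 2 (-0.32). Over all alternatives the adjusted p ran from 0.015 to 0.224 for Ndufa6 and from 0.0175 to 0.275 for Ndufa4.

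The promoters of Ndufs5 and Ndufa6 are shown because these genes moved in opposite directions in the KO, yet both carry letters like those bound by NRF1, a transcription factor known to drive many respiratory chain genes. The sequences are the 150 bases before each gene's start, from RefSeq on build GRCm38.p6, chr4:123718187-123718336 for Ndufs5 and chr15:82354292-82354441 for Ndufa6, both on the minus strand and written 5′ to 3′ along the gene. Capitals mark the match: GCGCANGCG in Ndufs5, starting 98 bases before the start, and GCGCATGC read on the opposite strand in Ndufa6, starting 83 bases before the start. Ndufa6 also holds the spaced form, after its start and outside the bases shown.
Ndufs5: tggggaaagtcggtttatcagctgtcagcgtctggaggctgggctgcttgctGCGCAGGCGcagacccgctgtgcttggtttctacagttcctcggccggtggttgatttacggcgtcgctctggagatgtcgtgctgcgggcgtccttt
Ndufa6: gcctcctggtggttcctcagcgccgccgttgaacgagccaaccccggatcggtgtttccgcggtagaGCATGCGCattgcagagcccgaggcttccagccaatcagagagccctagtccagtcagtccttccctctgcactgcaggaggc

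Promoter windows of 300 bases (250 before to 50 after the start) were found for 66 of the 82 genes, and motifs were counted on both strands. The letters GCGCATGC, the NRF1 motif, occurred in 9 of the 66 (13.6%) and in 3.05% of 27025 windows of all genes, noncoding genes included. The spaced form GCGCANGCG was added after the sequences had been seen, and it can overlap the first motif. It occurred in 18 (27.3%) and in 7.03% of all windows. Ndufs5 holds only this later form and not GCGCATGC, so its match was not found by a motif set beforehand. CCGGAAG, an ETS family motif that GABPA binds, occurred in 17 (25.8%) against 9.93%, and AAGATGGC, a YY1 motif, in 9 (13.6%) against 3.19%. A match is a description of letters and not a site of binding.

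No core subunit of complex I was called, beside 20.4% of all tested genes. The 6 with a tested probe set of their own were Ndufs1, Ndufs3, Ndufs7, Ndufs8, Ndufv1 and Ndufv2, with 0 of 6 called in limma and 0 of 6 at an unadjusted p under 0.05. Their log2 fold changes ran from -0.19 for Ndufs1 to 0.01 for Ndufs3, with a median of -0.07. Ndufs1, the large iron-sulfur subunit, gave 2136 and 2010.4 in WT and 1784 and 1837 in KO, a difference of -0.19 ± 0.11 (limma adjusted p = 0.283). Ndufv1, which binds NADH and the flavin, gave 4530.2 and 4403 in WT and 4586 and 4033 in KO (-0.05 ± 0.11, limma adjusted p = 0.774). The Ndufv1 groups overlapped. On the probe sets that stood for the 6 core genes, each 95% interval lay within a 1.5-fold change.

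Among the other accessory subunits of complex I the values leaned both ways. Ndufb2 gave 4430.4 and 4253 in WT and 3502 and 3636 in KO (log2 fold change -0.28, limma adjusted p = 0.0875). Ndufa1, an essential membrane subunit encoded on the X chromosome, gave 18668 and 17695 in WT and 22183 and 20266 in KO (0.22, limma adjusted p = 0.121). Ndufb1 was dim, at 205 and 235 in WT and 281 and 417 in KO (0.61 ± 0.24, limma adjusted p = 0.121). The groups did not overlap for any of these 3, but none was called. Both KO arrays lay above both WT arrays for 8 of the 33 tested complex I genes, and below for 13. Over all tested probe sets the shares were 25.1% and 35.1%. Without KO replicate 1 Ndufb1 was called at 0.88, and without KO replicate 2 Ndufa1 was called at 0.29. Ndufv3, among the brightest of the complex, had overlapping groups with a difference of 0.09 (limma adjusted p = 0.531).

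Ndufa12, an accessory subunit of the arm that takes up NADH, showed how far probe sets of 1 gene could part. Its brightest probe set gave 8516 and 7866 in WT and 7470.1 and 7242 in KO, a log2 fold change of -0.15 that was not called (limma adjusted p = 0.298). A different probe set of the gene gave 4730 and 4046 in WT and 7443 and 7151 in KO and was called higher, at 0.74 (limma adjusted p = 0.00255). The remaining 2 tested probe sets gave -0.29 and -0.78, neither of them called. Both the brightest probe set and the one that was called carry the suffix that marks possible cross-hybridisation. For the paralogues Ndufb4, Ndufb4b and Ndufb4c, which share probe sets, the 2 shared sets had log2 fold changes of -0.40 (limma adjusted p = 0.0213) and -0.23 (limma adjusted p = 0.133).

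Complex II, succinate dehydrogenase, is both a respiratory complex and an enzyme of the TCA cycle, and none of its 4 subunits was called by limma, with 0 at an unadjusted p under 0.05. Sdha, the flavoprotein, gave 4485 and 5383 in WT and 5272 and 4695 in KO, and the groups overlapped (log2 fold change 0.02 ± 0.12, limma adjusted p = 0.94). Sdhb, the iron-sulfur subunit, gave 7663 and 7482 in WT and 8792 and 8234 in KO (0.17 ± 0.09, limma adjusted p = 0.247). Sdhc, a membrane anchor, gave 2173 and 2009 in WT and 1884 and 1788 in KO (-0.19 ± 0.11, limma adjusted p = 0.311). The arrays of Sdhb and Sdhd were higher in KO and those of Sdhc were lower, without overlap, and Sdhd had a difference of 0.10 (limma adjusted p = 0.573). Over all tested probe sets, 25.1% lay higher and 35.1% lower in KO without overlap. On the probe sets that stood for the 4 subunits, each 95% interval lay within a 1.5-fold change.

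In complex III, the core subunits move the electrons and hold the complex together, and the accessory subunits are small. The 4 core genes all had both KO arrays below both WT arrays, as had 35.1% of all tested probe sets, and none of them was called by limma (2 of 4 had an unadjusted p under 0.05). Uqcrfs1, the Rieske iron-sulfur protein, gave 7454 and 6913 in WT and 5984 and 5844 in KO (log2 fold change -0.28 ± 0.09, limma adjusted p = 0.0775). Uqcrc2, a core protein that faces the matrix, gave 14148 and 13823 in WT and 11933 and 12246 in KO (-0.21 ± 0.08, limma adjusted p = 0.125). Cyc1, cytochrome c1, had a difference of -0.15 and Uqcrc1 of -0.13, with limma adjusted p of 0.355 and 0.426.

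Of the 5 tested accessory genes of complex III, 3 had both KO arrays above both WT arrays, as had 25.1% of all tested probe sets. Uqcrq, a small subunit that binds ubiquinone, was the only called gene of the complex. It gave 4860.3 and 4345 in WT and 6163 and 5746 in KO, a log2 fold change of 0.37 ± 0.10 (limma adjusted p = 0.0414). Uqcr11 gave 0.25 (limma adjusted p = 0.179) and Uqcrb 0.07 (limma adjusted p = 0.573), while Uqcrh, the hinge protein, lay lower in KO at -0.28 (limma adjusted p = 0.0665). Uqcr10 had overlapping groups and a difference of -0.03 (limma adjusted p = 0.879). A dimmer probe set of Uqcr10 was called lower at -0.55 (limma adjusted p = 0.0301), with signals of 1177 and 1089.9 in WT and 720 and 819 in KO. It stood for the gene once probe sets with a suffix for several transcripts or genes were removed. The difference between core and accessory genes was not tested. Uqcrh was called lower without KO replicate 1 (-0.37), with quantile normalization (-0.30) and with the mean of its probe sets (-0.26).

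The Uqcrq call was held in 7 of 14 alternatives, the fewest of the 7 called genes, with adjusted p from 0.0269 to 0.725. The call was lost without the filter on dim probe sets, without the intensity trend, with the mean of all its probe sets, without either WT array (0.45 without WT replicate 1 and 0.29 without WT replicate 2) and without KO replicate 1 (0.32). Once probe sets with a suffix for several transcripts or genes were removed, the gene fell to a dim probe set with a difference of -0.32. The signals of that probe set were 104 and 86.2 in WT and 80.3 and 66.0 in KO.

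Complex IV, cytochrome c oxidase, held the largest rise and the largest fall of all the subunit genes. Its small nuclear subunits exist in part as pairs of isoforms, with a widely expressed form and a form typical of heart and skeletal muscle, lung or testis. In KO cells Cox7a1, the isoform of heart and muscle, was higher, and Cox7a2l, a relative of the same family, was lower. Cox7a2, the widely expressed isoform, was not called. Of the 15 tested genes of the complex the other 13 were not called, and the group's median log2 fold change was -0.02.

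Cox7a2l, also known as SCAF1 or COX7RP, is known for joining complex III to complex IV in supercomplexes. It gave 20307 and 20367 in WT and 12210 and 12491 in KO. The arrays of each genotype were nearly equal and the genotypes were far apart, with a log2 fold change of -0.72 ± 0.08 (limma adjusted p = 0.000702), or 1.65-fold lower in KO. The gene's other 2 probe sets were called lower as well, at -0.79 (limma adjusted p = 0.00144) and -0.73 (limma adjusted p = 0.000802). All 3 carry a suffix for probes that can match several transcripts or genes, so none was left to test once such sets were removed. The call was held in 12 of the 13 alternatives that tested it and lost without the intensity trend (adjusted p = 0.0702, over a range of 0.00026 to 0.0702).

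Cox7a1 was much dimmer, at 215 and 216 in WT and 527 and 588 in KO. Both KO arrays lay above both WT arrays, with a log2 fold change of 1.31 ± 0.18 (limma adjusted p = 0.00192), or 2.48-fold. It has a single probe set and was called in all 14 alternatives. Cox7a2 gave 21822 and 20913 in WT and 22136 and 21642 in KO, so its groups overlapped. Its log2 fold change was 0.04 ± 0.08 (limma adjusted p = 0.81), with a 95% interval from -0.15 to 0.22, and its second probe set gave 0.02.

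**Figure D2:**
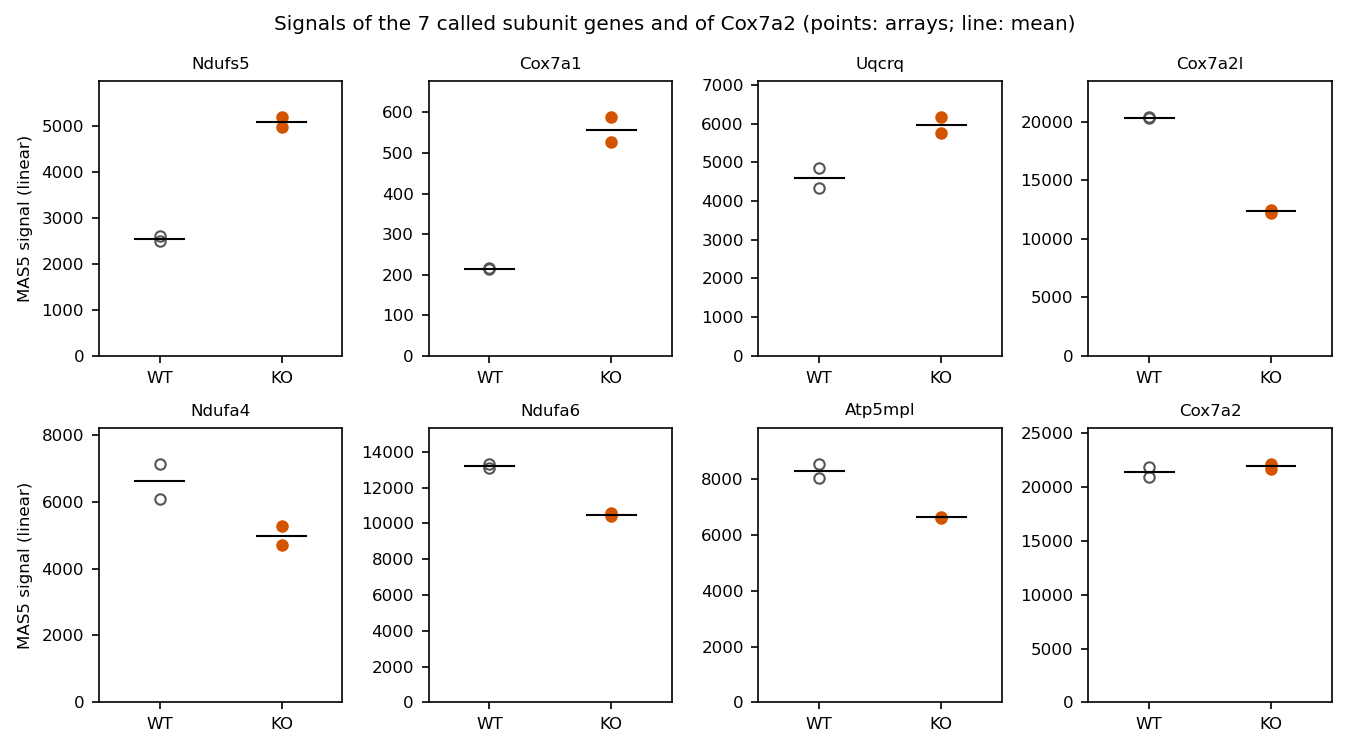
MAS5 signal on a linear scale (y axis, starting at 0 in each panel) on the 2 WT arrays (open points) and the 2 KO arrays (filled points) for the 7 called subunit genes and for Cox7a2. Lines are group means; the genotypes do not overlap for the called genes, with Cox7a2l falling from 20307 and 20367 to 12210 and 12491, while the Cox7a2 points overlap.

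The promoters of these 3 family members are shown because the genes had 3 different outcomes: higher, not called and lower. They are the 150 bases before each start, from RefSeq on build GRCm38.p6, written 5′ to 3′ along the gene. Cox7a1 lies at chr7:30184021-30184170 on the plus strand, Cox7a2 at chr9:79759854-79760003 on the minus strand, and Cox7a2l at chr17:83514334-83514483 on the minus strand. None of the 4 motifs searched (GCGCATGC, GCGCANGCG, CCGGAAG and AAGATGGC) was found in the 300-base window of any of the 3, so no letters are in capitals.
Cox7a1: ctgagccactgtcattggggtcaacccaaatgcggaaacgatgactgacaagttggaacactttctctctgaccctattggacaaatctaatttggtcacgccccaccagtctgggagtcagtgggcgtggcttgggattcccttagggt
Cox7a2: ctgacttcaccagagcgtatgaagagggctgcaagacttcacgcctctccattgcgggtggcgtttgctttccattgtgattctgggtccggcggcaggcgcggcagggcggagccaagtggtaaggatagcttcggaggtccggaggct
Cox7a2l: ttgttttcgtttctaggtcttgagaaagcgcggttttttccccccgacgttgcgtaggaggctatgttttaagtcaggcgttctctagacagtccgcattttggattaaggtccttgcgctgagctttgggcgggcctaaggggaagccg

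**Figure D3:**
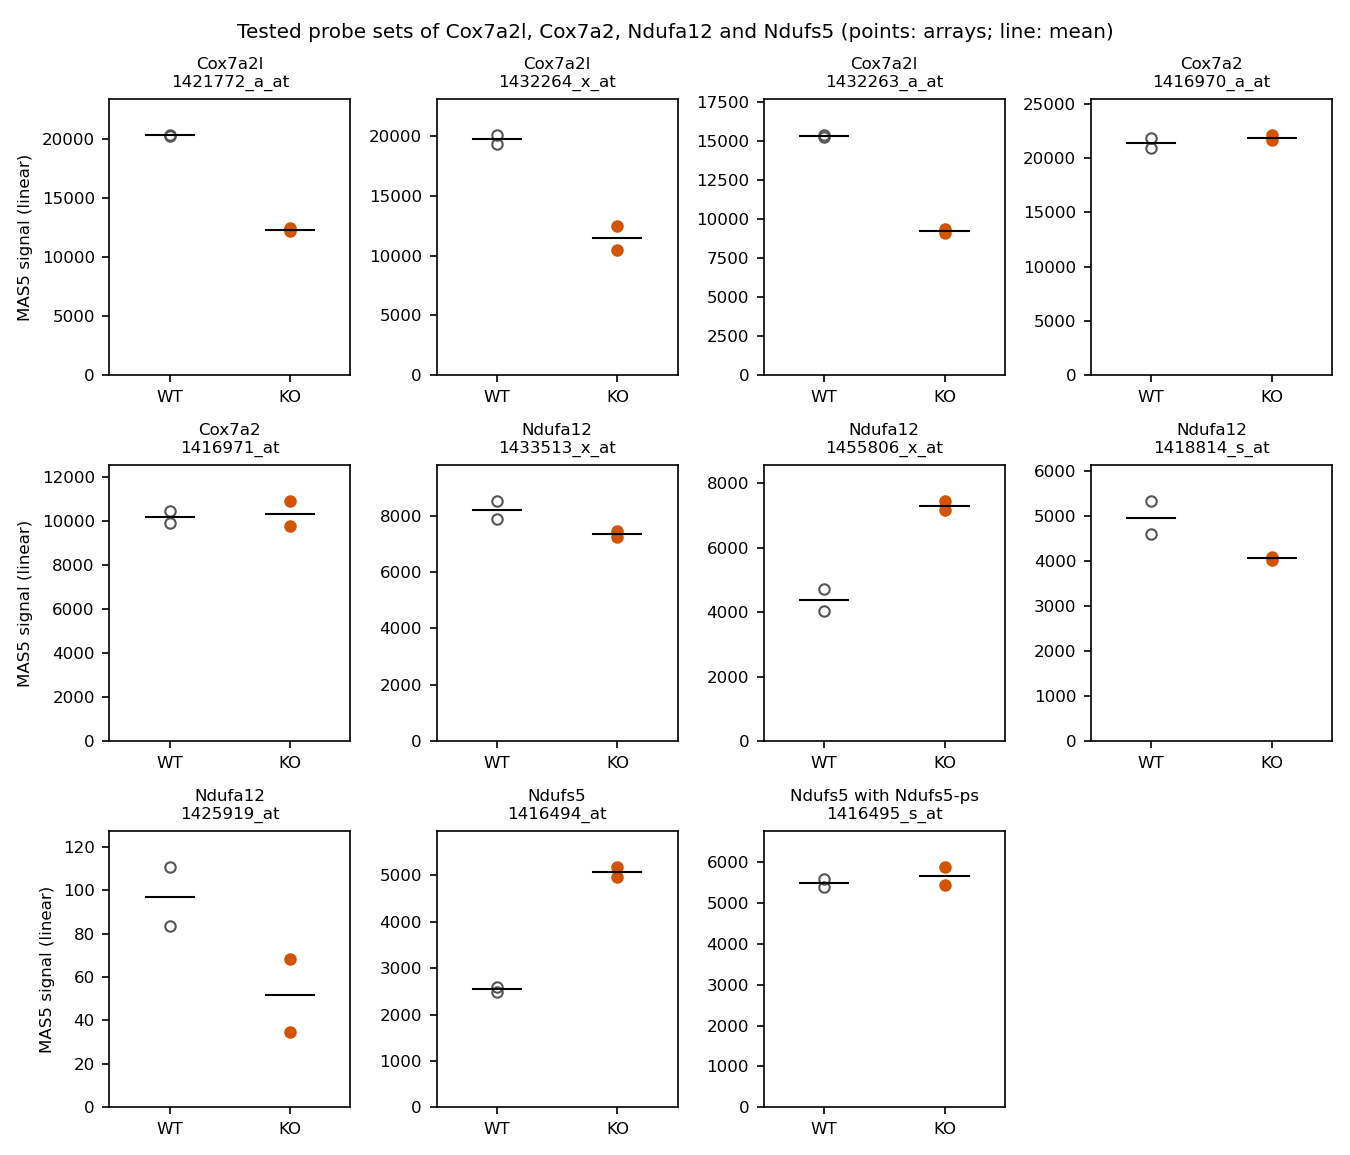
MAS5 signal on a linear scale (y axis from 0) on the 2 WT and 2 KO arrays for every tested probe set of Cox7a2l, Cox7a2 and Ndufa12, and for the 2 probe sets that name Ndufs5; lines are group means. All 3 Cox7a2l sets fall in KO, neither Cox7a2 set is called, and the sets of Ndufa12 and of Ndufs5 differ from each other in outcome.

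Other isoforms typical of single tissues were dim and were not called. Cox4i2, the lung isoform of Cox4, gave 59.1 and 59.4 in WT and 108 and 96.8 in KO (log2 fold change 0.65 ± 0.31, limma adjusted p = 0.195). Cox6a2 of heart and muscle gave -0.50 (limma adjusted p = 0.339). Cox6b2 and Cox8c, both known from testis, gave -0.42 (limma adjusted p = 0.479) and -0.35 (limma adjusted p = 0.325). Cox7a1 was thus the only called gene of the 5 tested isoforms, and fold changes of such dim genes are understated because 16 was added to each signal before taking the logarithm.

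The bright structural subunits of complex IV were not called. Cox4i1, the widely expressed form of a regulatory subunit, gave 23197 and 22127 in WT and 21115 and 19500 in KO (log2 fold change -0.16 ± 0.08, limma adjusted p = 0.243). Cox5a gave 27741 and 27268 in WT and 26102 and 30341 in KO, and Cox6a1 gave 28385 and 27151 in WT and 29455 and 25011 in KO. Both had groups that overlapped, with differences of 0.03 and -0.03, and a KO pair that spread more widely than the WT pair. Cox5b gave 0.24 (limma adjusted p = 0.252), Cox6b1 0.09, Cox6c -0.02 and Cox8a -0.02. Second probe sets of Cox6a1 and Cox6c lay higher in KO, at 0.28 and 0.26 (limma adjusted p = 0.0621 and 0.148). Further bright probe sets of Cox5b gave 0.34, 0.30 and 0.15, and a dim probe set -0.35, none of them called. The probe set standing for Cox7c was dim and its groups overlapped (113 and 171 in WT, 114 and 89.6 in KO).

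Complex V, the ATP synthase, consists of a catalytic F1 head, a ring of c subunits that turns in the membrane, a peripheral stalk that holds the head still, and further membrane subunits. Only Atp5mpl, a small proteolipid of the membrane part, was called. It gave 8556 and 8049 in WT and 6665 and 6624 in KO, a log2 fold change of -0.32 ± 0.09 (limma adjusted p = 0.0441). The groups were apart, but the call was held in 8 of 14 alternatives, with adjusted p from 0.0262 to 0.268. It was lost without the filter on dim probe sets, with arrays centred on their medians, without the intensity trend, without either WT array (-0.28 without WT replicate 1 and -0.36 without WT replicate 2) and without KO replicate 2 (-0.32).

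In the F1 head the values went both ways. Atp5a1, the alpha subunit, gave 11618 and 10662 in WT and 9364 and 8519 in KO. Its log2 fold change of -0.32 ± 0.10 just missed the threshold (limma adjusted p = 0.0557), as did a second probe set at -0.29 (limma adjusted p = 0.0542). Atp5b, the catalytic beta subunit, gave 14904 and 14146 in WT and 13393 and 16047 in KO, with the KO arrays on either side of the WT arrays (0.01 ± 0.10, limma adjusted p = 0.948). Atp5c1, the gamma subunit that forms the shaft, gave -0.18 (limma adjusted p = 0.196), Atp5e -0.16 (limma adjusted p = 0.259) and Atp5d, the delta subunit, 0.30 (limma adjusted p = 0.0766). A second probe set of Atp5d gave 0.31 and also just missed the threshold (limma adjusted p = 0.0501). A dim probe set of Atp5c1 was called lower at -1.20 (limma adjusted p = 0.0149), with signals of 260.2 and 369 in WT and 112 and 141 in KO.

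The c ring genes Atp5g1, Atp5g2 and Atp5g3 encode the same mature protein, and their log2 fold changes were 0.01, -0.12 and -0.04. Of the peripheral stalk, Atp5pb gave 0.16 (limma adjusted p = 0.24), Atp5j 0.12, Atp5h -0.04 and Atp5o -0.12. None of these 7 genes was called, and none had an unadjusted p under 0.05 in limma, on the probe sets that stood for them. Atp5pb had a second probe set higher in KO at 0.32, which just missed the threshold (limma adjusted p = 0.0501). A second probe set of Atp5o, marked for possible cross-hybridisation, was called lower at -0.58 (limma adjusted p = 0.0208), with signals of 4893 and 4431 in WT and 2753 and 3514 in KO, and Atp5o was also called with the mean of its probe sets. Atp5md, a small membrane subunit, gave 3983 and 4001 in WT but 3649 and 7995 in KO. Its 2 KO arrays thus disagreed, 1 below and 1 far above the WT arrays, and its difference of 0.44 ± 0.29 was not called (limma adjusted p = 0.349). Without KO replicate 1 it was called at 0.999, and without KO replicate 2 it was -0.13.

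The pattern within genotypes was as large as that between them. WT replicate 1 had the higher log2 signal than WT replicate 2 for 64 of the 78 subunit genes (82.1%), with a median log2 difference of 0.08, and KO replicate 1 exceeded KO replicate 2 for 57 (73.1%), with a median of 0.09. Over all tested probe sets the corresponding shares were 47.7% and 48.2%. The median log2 fold change between genotypes, -0.03, was smaller than either of these differences between arrays of 1 genotype. It turned to 0.01 when each array was centred on the median of its tested probe sets, and it lay between -0.09 and -0.02 when single arrays were left out. Between same-numbered arrays the median KO minus WT difference was -0.064 for replicate 1 and -0.063 for replicate 2. Over all tested probe sets these medians were -0.089 and -0.06. With the numbers crossed, the subunit medians were 0.007 (KO replicate 1 minus WT replicate 2) and -0.127 (KO replicate 2 minus WT replicate 1). No shift of the whole system between genotypes was detectable with these arrays.

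**Figure D4:**
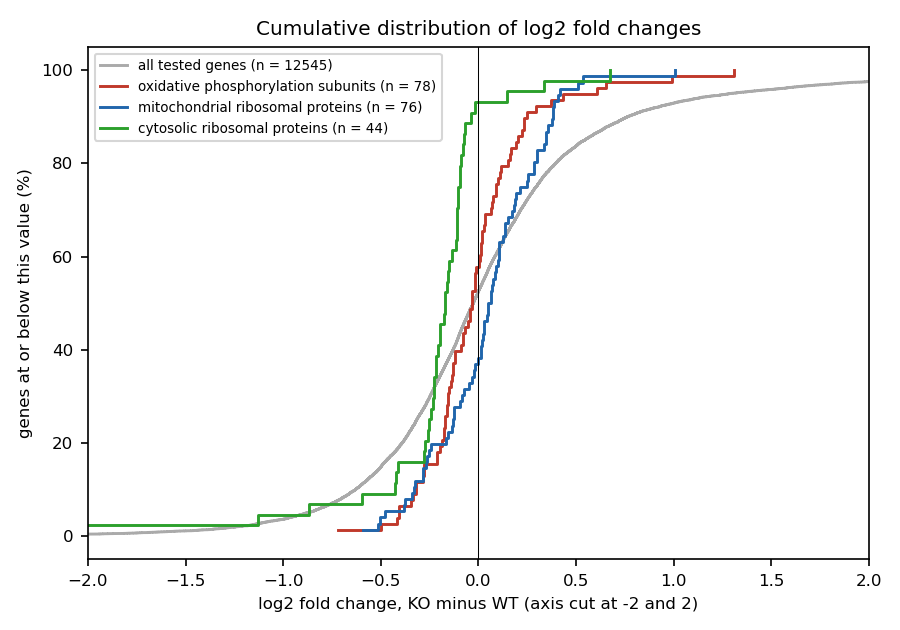
Cumulative share of genes (y axis, percent) at or below each log2 fold change between KO and WT (x axis), with 1 probe set per gene, for all 12545 tested genes, the 78 oxidative phosphorylation subunits, 76 mitochondrial ribosomal proteins and 44 cytosolic ribosomal proteins. The subunit curve is steeper than that of all genes and crosses 0 near its middle; the curve of the cytosolic ribosomal proteins lies to the left, with a median of -0.17.

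Other large families of bright or mitochondrial genes give a scale for this. Of 76 tested mitochondrial ribosomal protein genes 3 were called higher and 5 lower (10.5%), with a median log2 fold change of 0.06. Of 44 tested cytosolic ribosomal protein genes 0 were called higher by limma and 7 lower (15.9%), with a median of -0.17 and 20 at an unadjusted p under 0.05. Both shares stand beside 20.4% of all tested genes. Of the 7 cytosolic calls, those of Rpl12, Rpl14, Rpl39l and Rps6 came from probe sets far dimmer than the family's median signal of 35800. Their mean signals were 793, 1413, 147 and 1780. How the subunit genes differ from either family was not tested.

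The genes that build, feed or regulate the respiratory chain were counted by list. Over 110 tested genes in lists of electron carriers, assembly factors, biogenesis regulators and TCA cycle enzymes, with the subunits Ndufab1 and ND5 added, 5 were called higher and 15 lower (18.2%). Of all tested genes with 1 probe set each 20.4% were called, and of all probe sets 17.1%. The count of 20 fell to 9 without WT replicate 1, 10 without WT replicate 2 and 13 without KO replicate 1. It was 10 without the filter on dim probe sets and 2 without the intensity trend. Without probe sets whose suffix marks probes that can match several transcripts or genes it was 11.

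**Figure D5:**
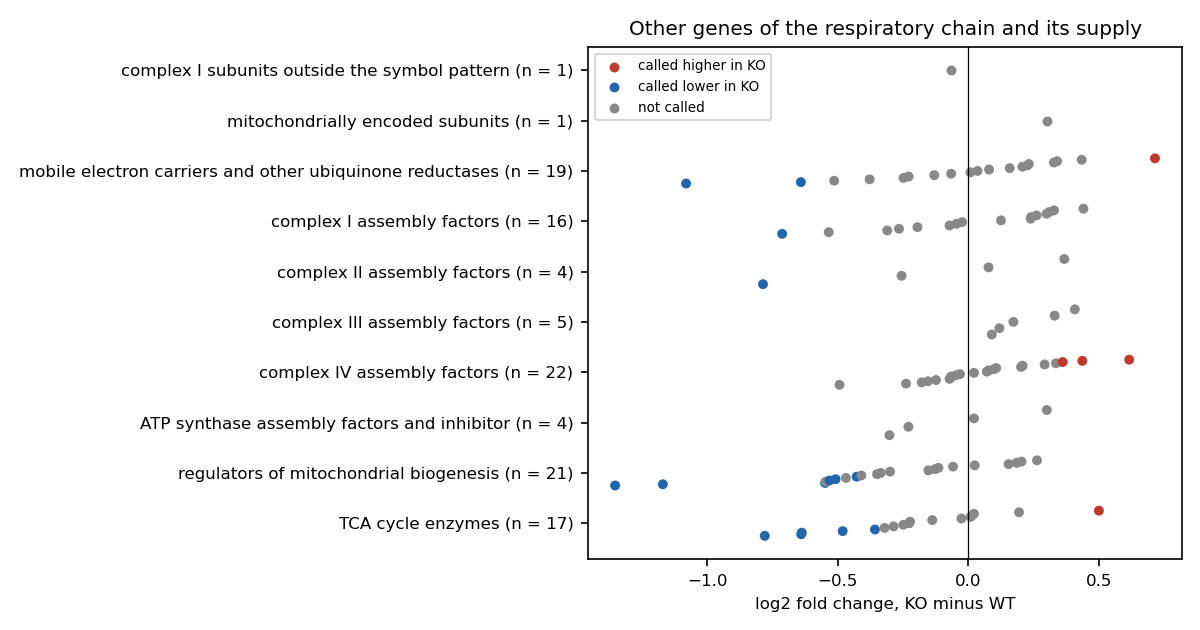
Log2 fold change between KO and WT (x axis) for each tested gene of the lists related to the respiratory chain (rows, with the number tested; each point is 1 gene, and the small vertical offsets only separate points). The regulators of mitochondrial biogenesis and the TCA cycle enzymes have 6 and 5 genes called lower, and the complex IV assembly factors have 3 called higher. Of all tested genes, 20.4% were called in either direction.

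Among 21 tested regulators of mitochondrial biogenesis, 6 were lower and 0 higher in limma, with a median log2 fold change of -0.34 (10 had an unadjusted p under 0.05). The 28.6% called stands beside 20.4% of all tested genes and 29.7% of those with a mean signal over 1000. Ppargc1b, a coactivator that promotes mitochondrial gene expression, gave 655 and 590.4 in WT and 253 and 284 in KO, a difference of -1.17 ± 0.17 (limma adjusted p = 0.00286). Nrip1, a corepressor known to restrain the same genes, gave 3600.2 and 3576 in WT and 1355 and 1437 in KO (-1.35 ± 0.11, limma adjusted p = 0.00013). Genes with opposite known roles thus fell together. Tfam, which packages and transcribes mitochondrial DNA, gave 2828 and 2646 in WT and 1857 and 1920 in KO (-0.53 ± 0.11, limma adjusted p = 0.0128). Polg2, the accessory subunit of the mitochondrial DNA polymerase, Mterf3 and Gabpb1 were the others that fell, by 0.55, 0.43 and 0.51 on the log2 scale. Nrf1 gave 549 and 734 in WT and 406 and 455 in KO, and its difference of -0.55 was not called (limma adjusted p = 0.0833).

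Of 17 tested TCA cycle and pyruvate entry enzymes, 5 were lower and 1 higher, with a median of -0.23. That is 35.3% called, beside the same 20.4% and 29.7%. Pdha1, the first subunit of pyruvate dehydrogenase, gave 6291 and 6037 in WT and 4231 and 3689 in KO (-0.64 ± 0.11, limma adjusted p = 0.00464). Cs, citrate synthase, gave 13800 and 13283 in WT and 10576 and 10559 in KO (-0.36 ± 0.08, limma adjusted p = 0.0224). Idh2, Suclg2 and Fh1 fell by 0.78, 0.64 and 0.48 on the log2 scale. Idh3a, of the NAD-linked isocitrate dehydrogenase, was higher, at 2145 and 2125 in WT and 3230 and 2838 in KO (0.50 ± 0.11, limma adjusted p = 0.0193). Sdha to Sdhd, which share this cycle, were not called.

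In the lists of assembly factors, 13.6% were called for complex IV, 6.25% for complex I and 25% (1 of 4) for complex II. Over all tested genes the share was 20.4%. For complex IV 3 of 22 were higher and 0 lower in limma (6 had an unadjusted p under 0.05): Pet100 at 0.62 (limma adjusted p = 0.00435), Cox19, a copper-handling protein, at 0.44 and Higd1a at 0.36. Sdhaf1, which helps insert the iron-sulfur clusters of complex II, gave 3283 and 3231 in WT and 1692 and 2093 in KO and was lower at -0.79 (limma adjusted p = 0.00438). Tmem186 of complex I assembly was lower at -0.71 (limma adjusted p = 0.0236), as 1 of 16. None of the 5 tested factors of complex III and none of the 4 for the ATP synthase was called by limma, and each of these lists had 1 gene at an unadjusted p under 0.05.

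Of the 19 tested electron carriers and other enzymes that feed ubiquinone, Gpd2, the mitochondrial glycerol phosphate dehydrogenase, was higher (0.72, limma adjusted p = 0.044). Sqor, which oxidises sulfide, and Coq8a, which supports ubiquinone synthesis, were lower (-0.64 and -1.08, limma adjusted p = 0.0308 and 0.0231). The 15.8% called stands beside 20.4% of all tested genes. Cycs, cytochrome c, gave 0.16 (limma adjusted p = 0.234). Ndufab1, a complex I subunit whose symbol lies outside the families chosen, gave -0.07, and ND5, the 1 mitochondrially encoded subunit with a probe set of its own that was tested, gave 0.30 (limma adjusted p = 0.168).

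Markers of other cell types moved with genotype. In RNA of whole cultures, more or fewer cells of a type and more or less RNA per cell cannot be told apart. The summed signal of 9 mast cell, basophil and eosinophil markers was 778 to 1256 in WT and 30860 to 47630 in KO, and 8 of the 9 were called higher. Sums for 5 CD8 T and NK cell markers were 2187 to 2261 in WT and 5285 to 6659 in KO (3 higher), for 6 B and plasma cell markers 562 to 1202 and 3296 to 5939 (2 higher), and for 7 myeloid markers 450.2 to 604 and 1502 to 1786 (4 higher). The 2 erythroid markers summed to at most 32.6 on every array and were not tested. Of all tested genes, 20.4% were called higher or lower in KO. The 7 T cell markers summed to 40790 to 41590 in WT and 57830 to 59900 in KO (3 higher, 1 lower), and Cd3d among them was at 17974 to 18632 in WT and 21778 to 25008 in KO. Cd4 was at 786 and 662 in WT and 517 and 631 in KO and was not called. Foxp3 was 2177 and 2033 in WT and 947 and 1101 in KO (limma adjusted p = 0.00123). No marker was at exactly 0 on any array, and the part of these markers in the 7 calls above was not tested.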

How the data were processed

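RNA of WT and KO naive T cells after 3 days of Treg induction was measured on 4 arrays from 6 micrograms of total RNA each, per the labels. The deposited values are linear intensity values per probe set; per the submitters' processing notes they were made with MAS5, in a version not given in the sources used here. The method scales each array to a common level, which removes differences in total RNA per cell, and its dim signals vary strongly. Gene names came from the platform annotation: of 45101 probe sets, 64 were controls, and of those that remained 932 named several genes and were given no gene.

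The titles' genotype set the groups. Signals were taken as log2(signal + 16), the dimmest 40% of probe sets by mean were dropped, and the 27022 others were compared between KO and WT with limma 3.58.1 in R 4.3.3 (lmFit, then eBayes with a trend on intensity), two-sided, with Benjamini-Hochberg adjustment at 0.05. Residual degrees of freedom were 2 and prior ones 6.41. The number of arrays limits the precision.

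Members and gene lists were chosen with earlier results of these data known. Named by rule were all called members, the 2 with the largest change and the 2 brightest of each complex, and those not tested; other members were named for their role after their values were seen. The bound of 1.5-fold and the spaced motif were chosen after seeing the data. The 14 alternatives changed the pseudocount to 1 or 64 and the filter to none or 60%, or used quantile normalization, median centring, no trend, the array number as a block, no cross-hybridising probe sets, the mean of all probe sets of a gene, and each array left out. Cross-hybridising here means any probe set with an _x_at, _s_at or _a_at suffix, for probes that can match several transcripts or genes. Promoters are from RefSeq, GRCm38.p6. Scanner files were not used here.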

Additional observations from a re-analysis of the deposited data

How the results depend on the processing

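Over the 14 alternatives, Ndufs5 and Cox7a1 remained called in all, and Cox7a2l in all that tested it but the fit without an intensity trend. Ndufs5 was read only from the probe set that names it alone, and never from the shared one that showed no difference. The count of subunit genes called lower, 4 in the report, was 1 without the filter on dim probe sets, 7 with quantile normalization, 1 with arrays centred on their medians, 0 without the intensity trend in limma (1 at an unadjusted p under 0.05), and 7 with the mean of all probe sets of a gene. With single arrays left out it ran from 1 to 7, and the count called higher, 3 in the report, ran from 2 to 6. The array that stays alone is then assumed to vary like the other genotype. Of the related lists 20 genes were called, against 10 without the filter, 2 without the trend, 11 without cross-hybridising probe sets, and 9 to 15 with single arrays left out. Uqcrq turned to -0.32 without cross-hybridising probe sets. The array numbers are not shown to pair the samples over all 27022 tested probe sets, where deviations of same-numbered arrays correlated at 0.01. In the subunit genes, however, replicate 1 exceeded replicate 2 for 64 of 78 in WT and for 57 in KO. Pairing within these genes was not tested. With the array number as a replicate block 3 subunit genes were called higher and 5 lower, and 22 genes of the related lists. The median log2 fold change of the subunits lay between -0.09 and 0.01 throughout. Over the 20 subunit genes named by rule, 233 values kept their direction and their side of the threshold, 24 lost a call, 8 gained one, 9 that were never called changed sign (of Sdha, Cox5a, Cox6a1 and Atp5md), and 1 called value reversed. Except where the construction shows it, the cause was not tested. Dim probe sets, such as those of Cox6a2, Cox6b2 and Cox7c, had intervals wider than a 1.5-fold change.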
